A study of Mus musculus with 6 samples.

Results

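The purine nucleotide synthesis genes were the 9 mouse genes Ppat, Gart, Pfas, Paics, Adsl, Atic, Adss (also called Adss2), Impdh2 and Gmps. A peak of the transcriptional coregulator HCFC1 belonged to them when its deposited gene name was one of these. The rule found 17 of 36147 peaks in control cells, 11 of 21881 after ERRα knockdown and 8 of 12610 after HCFC1 knockdown, spread over 7 of the 9 genes. Gart and Ppat had no peak under their own names in any list. The peaks over their starts were assigned to the neighbouring genes, for Ppat to Paics in all 3 lists and for Gart to Son in the control and ERRα-knockdown lists.

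The peaks came from chromatin immunoprecipitation and sequencing (ChIP-seq) of HCFC1 in Hepa1-6, a mouse hepatoma line labelled wild type and hepatocyte. The cells of the 3 groups received a control siRNA pool, siRNA against ERRα (siERRa) or siRNA against HCFC1 (siHCFC1), at a total of 200 nM over 96 h. Each group had 1 HCFC1 library, pooled from 2 independent immunoprecipitations, so no value has a replicate error and no p-value is given. Read depth is unknown, how far either knockdown went cannot be read from these lists, and binding alone does not allow the labelled cell type to be checked.

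The de novo pathway builds the purine ring step by step on phosphoribosyl pyrophosphate (PRPP) until inosine monophosphate (IMP) is made, and separate branches then turn IMP into AMP or GMP. The liver is a main site of this synthesis. HCFC1 does not bind DNA itself. It reaches promoters through DNA-binding partners, among them THAP11 and ZFP143, and it also interacts with MYC, a factor that binds E-boxes (CACGTG) and is known to activate several purine synthesis genes. ERRα is an orphan nuclear receptor that binds an element containing AAGGTCA and is known for its control of mitochondrial genes.

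The knockdown lists had been limited to peaks near genes and the control list had not. The farthest peak from a transcription start was 19993 bp away in the ERRα-knockdown list and 19994 bp away in the HCFC1-knockdown list, while 10630 control peaks lay more than 20000 bp away. A control peak beyond that distance could be overlapped only where a knockdown peak centred nearer to a start reached it, so the member peaks are described below mainly within 1000 bp of a start, where this limit does not act. Such peaks, with their centres at most 1000 bp from the deposited start, are called proximal. There were 11343 proximal peaks in the control list, 11065 after ERRα knockdown and 7167 after HCFC1 knockdown. The peak score is the authors' own value on a scale that is not stated. It was used to place a peak within its list, and a different rank in lists of different length shows no change.

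The upstream sequences of 6 members are shown because these genes differ in the results after HCFC1 knockdown. Atic and Paics had a peak over their starts in that list and Impdh2 one just inside the gene, while Adsl, Gmps and Gart had none within 1000 bp. Each sequence is the 250 bases before the start, from RefSeq (GRCm38.p6, the assembly that mm10 names), written 5′ to 3′ along the gene, and capitals mark the E-box letters CACGTG. The positions are chr1:71556906-71557155 on the plus strand for Atic, chr5:76951052-76951301 on the plus strand for Paics, chr9:108560186-108560435 on the plus strand for Impdh2, chr15:80948240-80948489 on the plus strand for Adsl, chr3:63975893-63976142 on the plus strand for Gmps and chr16:91646973-91647222 on the minus strand for Gart.
Atic: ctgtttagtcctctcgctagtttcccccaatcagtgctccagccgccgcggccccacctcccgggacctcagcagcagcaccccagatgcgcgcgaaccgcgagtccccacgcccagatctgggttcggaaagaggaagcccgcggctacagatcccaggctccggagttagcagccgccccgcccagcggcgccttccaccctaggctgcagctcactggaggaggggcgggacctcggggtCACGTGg
Paics: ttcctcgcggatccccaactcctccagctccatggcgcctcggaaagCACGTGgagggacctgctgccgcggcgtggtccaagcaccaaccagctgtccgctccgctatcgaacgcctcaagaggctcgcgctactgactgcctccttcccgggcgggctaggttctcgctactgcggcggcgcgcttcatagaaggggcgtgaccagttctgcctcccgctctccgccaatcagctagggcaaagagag
Impdh2: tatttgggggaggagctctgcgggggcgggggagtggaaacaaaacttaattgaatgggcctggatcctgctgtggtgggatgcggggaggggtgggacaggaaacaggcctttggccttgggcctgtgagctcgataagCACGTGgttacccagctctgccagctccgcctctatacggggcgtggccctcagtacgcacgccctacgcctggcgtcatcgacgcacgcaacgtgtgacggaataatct
Adsl: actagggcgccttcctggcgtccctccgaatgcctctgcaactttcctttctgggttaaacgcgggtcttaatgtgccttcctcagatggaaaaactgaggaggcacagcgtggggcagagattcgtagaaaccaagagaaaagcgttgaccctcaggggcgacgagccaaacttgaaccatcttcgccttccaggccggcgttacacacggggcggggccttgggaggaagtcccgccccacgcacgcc
Gmps: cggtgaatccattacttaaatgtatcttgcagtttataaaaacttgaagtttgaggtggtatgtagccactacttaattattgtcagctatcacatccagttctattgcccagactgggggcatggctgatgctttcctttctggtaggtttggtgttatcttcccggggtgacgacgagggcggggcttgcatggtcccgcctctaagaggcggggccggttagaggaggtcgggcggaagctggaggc
Gart: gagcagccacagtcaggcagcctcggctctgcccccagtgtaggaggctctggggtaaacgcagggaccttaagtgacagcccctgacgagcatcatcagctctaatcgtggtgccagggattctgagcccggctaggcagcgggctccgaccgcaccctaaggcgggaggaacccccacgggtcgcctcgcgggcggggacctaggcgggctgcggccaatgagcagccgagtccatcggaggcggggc

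The first 3 sequences each held 1 CACGTG, beginning at base -7 from the start in Atic, -203 in Paics and -110 in Impdh2, and the other 3 held none. At Impdh2 the printed bases lay outside the peak in the control and HCFC1-knockdown lists, and only the ERRα-knockdown peak reached them. The windows of Adss, which had a peak in every list, and of Ppat, which shares the Paics peak, held none either. Neither is shown, so by peaks within 1000 bp the E-box letters split by outcome among the printed sequences but not among the members. Counted by overlap of the window itself, as below, Impdh2 had no control or HCFC1-knockdown peak. By that measure the letters did not split the printed sequences either. The search covered both strands of RefSeq windows of 250 bases before and 50 after a start, and 8 of the 9 members had such a window. Over 21262 windows of protein-coding genes, 7.84% held CACGTG, and 11.1% of the 9270 windows overlapped by a control peak did. The E-box did not go with retention in general: a peak overlapped the window after HCFC1 knockdown for 567 of 1033 control-occupied windows with CACGTG (54.9%, exact binomial 95% interval 51.8 to 58.0%) and for 4501 of 8237 without it (54.6%, 53.6 to 55.7%). None of the 8 member windows held AAGGTCA, the ERR half-site (4.08% of all windows), ACTACAA, the start of the ZFP143 and THAP11 element (3.60%), or AAGATGGC, a YY1 motif (3.05%). CCGGAAG, the ETS and GABPA motif (11.6% of all windows, 22% of those overlapped by a control peak), was found in Ppat and Gart. The NRF1 motif (6.38% and 12.2%) was found in Ppat. GGGCGG, the SP1 motif, was found in all 8, with 9 matches in Adss and 1 to 3 in each of the others. It was in 46.2% of all windows and in 70.1% of those overlapped by a control peak. A match is only a match of letters.

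In control cells an HCFC1 peak covered the start of nearly every gene of the pathway. A proximal control peak was assigned to 7 of the 9 members, against 44.2% of 21896 protein-coding genes. Counting any peak that covered the start, whatever gene it was assigned to, gave 8 of 9, against 42.5% of 17491 genes with a start in the RefSeq promoter table. The exception was Impdh2, whose control peak began just inside the gene. The RefSeq promoter table has no start for Pfas, and Ppat and Paics were both counted from the peak they share. Gart was counted from a peak assigned to Son and centred nearer the Son start. Of the 8 proximal control peaks assigned to members, 3 carried the promoter label, with centres at -763 (Adsl), 54 (Adss) and 59 bp (Paics). The others were centred farther inside the gene, at 166 to 438 bp. They were labelled intron or, at Impdh2, as the end of another transcript.

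**Figure D1:**
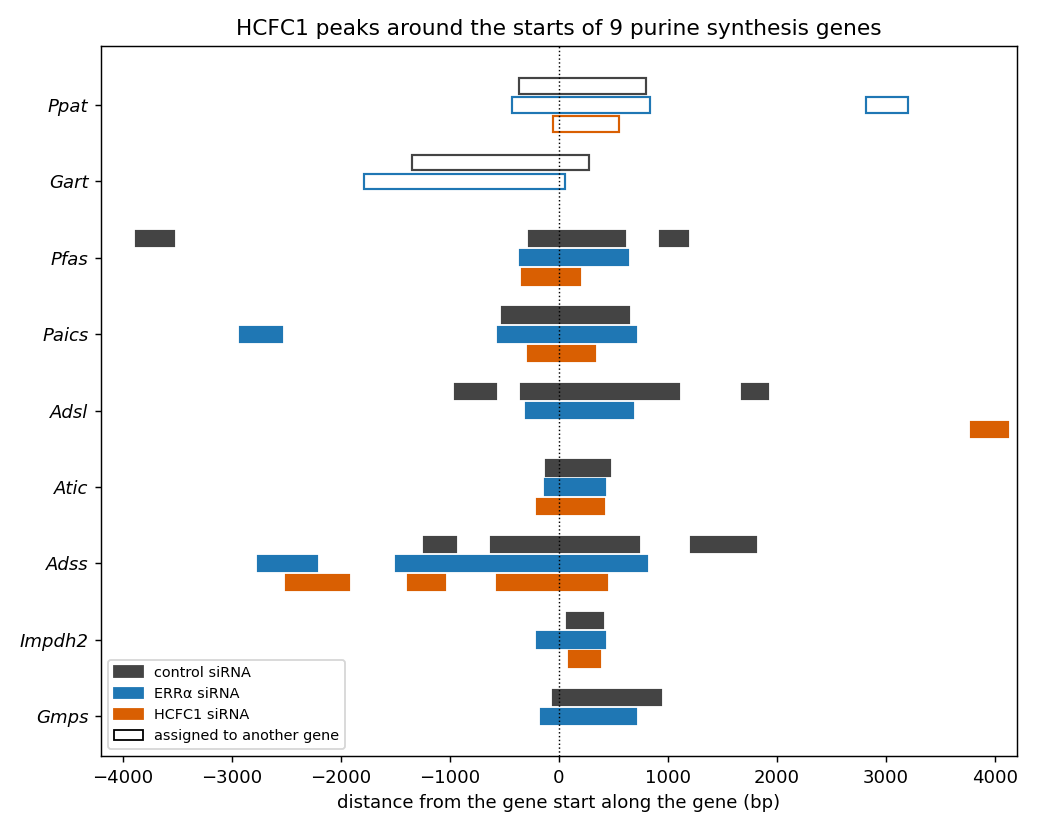
Horizontal bars show the HCFC1 peaks that reached within 5000 bp of the gene start, for 9 genes and 3 lists. Peaks farther away are not drawn. Bars run from peak start to peak end, in bp from the gene start along the direction of the gene (0, dotted line). Open bars were assigned to another gene. Peaks cluster over the starts in the control and ERRα-siRNA lists, and in the HCFC1-siRNA list no bar crosses the starts of Gart, Adsl, Gmps and Impdh2, where the Impdh2 peak lies just inside the gene.

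Among the genes that lead to IMP, the paired genes Ppat and Paics shared 1 peak. PPAT catalyses the committed step of the pathway, and PAICS catalyses a carboxylation and the ligation of aspartate that follows. Their transcripts run in opposite directions from starts 276 bp apart on chromosome 5 and overlap at their 5′ ends. The control peak lay at chromosome 5, 76950779 to 76951943, with a score of 91, which 50.1% of proximal control peaks were below. In the ERRα-knockdown list a peak at nearly the same place (76950740 to 76952006) had a score of 253, above 62.8% of proximal peaks of that list. In the HCFC1-knockdown list a narrower peak (76951022 to 76951631) had a score of 28, above 19.8% of them. All 3 peaks covered both starts, so occupancy of the 2 genes cannot be told apart.

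Gart showed the same kind of shared start, with a different outcome. GART carries several activities of the early pathway, and Son, transcribed away from it, encodes a splicing factor. The starts are 852 bp apart on chromosome 16. A control peak at 91646698 to 91648320, score 134, covered the Gart start and was assigned to Son, and so did an ERRα-knockdown peak at 91646914 to 91648763, score 309. In the HCFC1-knockdown list no peak overlapped the control peak.

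Pfas, which encodes the enzyme that makes formylglycinamidine ribonucleotide, had 4 control peaks. The one at its start (chromosome 11, 69007856 to 69008732, 166 bp inside the gene) had a score of 224, above 75.7% of proximal control peaks. It was present after ERRα knockdown with a score of 392 (69007829 to 69008818, above 73.6% of proximal peaks) and after HCFC1 knockdown with a score of 25 (69008268 to 69008796, above 15.6%). Pfas thus stood above most proximal peaks of 2 lists and near the bottom of the last. The other 3 control peaks, with scores of 21, 42 and 47 at 1055, 6954 and -3703 bp, were overlapped in neither knockdown list.

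Adsl had the most divided pattern of the group. Adenylosuccinate lyase, its product, acts both on the way to IMP and in the AMP branch. Over the start lay a broad control peak (chromosome 15, 80948143 to 80949593) with a score of 176, and upstream, centred at -763 bp, a narrow one (80947540 to 80947914) with a score of 91. The upstream peak alone carries the promoter label, and it was missing from both knockdown lists. The peak over the start was present after ERRα knockdown (80948190 to 80949173, score 266, above 64.4% of proximal peaks), so the gene start remained occupied there although the promoter-labelled peak was absent. After HCFC1 knockdown neither was overlapped, and the only Adsl peak of that list lay in intron 2 at 3953 bp (80952271 to 80952615, score 27), where the control list had none. One more control peak, in intron 1 (score 21), had no counterpart in either list.

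Atic, which encodes the enzyme of the last steps to IMP, had a peak of similar extent in each list. Its control peak (chromosome 1, 71557038 to 71557628) had a score of 99, above 52.7% of proximal control peaks. The ERRα-knockdown peak (71557033 to 71557583) had a score of 193, above 54.9% of that list's. The HCFC1-knockdown peak (71556953 to 71557572) had a score of 108, above 79.9%. Atic was the only member with a higher score in the HCFC1-knockdown list than in the control list, where the median proximal scores were 47 and 90. With 1 library per list and an unstated scale, no change is read from this. The 2 other control peaks assigned to Atic lay upstream at -55389 and -66588 bp, beyond the distance to which the knockdown lists extend.

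In the AMP branch Adss, the gene of adenylosuccinate synthase, had the highest score of the group in each list. The control peak over its start (chromosome 1, 177795778 to 177797133) scored 807, above 91.1% of proximal control peaks. After ERRα knockdown 1 peak of 2310 bp (177795696 to 177798006, score 1946) spanned this peak and a weak control neighbour (177797453 to 177797748, score 18). After HCFC1 knockdown both positions had separate peaks, at 177796067 to 177797078 (score 502, above 94.4% of proximal peaks) and 177797554 to 177797890 (score 30). Farther upstream, where the control list had no peak, both knockdown lists had one, and the 2 overlapped each other. It was centred at -2493 bp with a score of 85 after ERRα knockdown (177798732 to 177799273) and at -2215 bp with a score of 26 after HCFC1 knockdown (177798438 to 177799010). Both intronic control peaks of Adss were without a counterpart, and 1 of them lay 21819 bp from the start, past the limit of the knockdown lists.

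The GMP branch split in the HCFC1-knockdown list. Impdh2 encodes IMP dehydrogenase, the rate-limiting enzyme of guanine nucleotide synthesis, and Gmps encodes GMP synthase. The Impdh2 control peak (chromosome 9, 108560515 to 108560841) scored 92, the ERRα-knockdown peak (108560236 to 108560856) scored 188 and the HCFC1-knockdown peak (108560533 to 108560817) scored 34. It was annotated to the end of another transcript, although its centre was 242 bp from the Impdh2 start. The Gmps control peak (chromosome 3, 63976086 to 63977077) scored 213, above 74.5% of proximal control peaks, and the ERRα-knockdown peak (63975976 to 63976851) scored 479. No peak was assigned to Gmps in the HCFC1-knockdown list, and none overlapped the control peak.

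**Figure D2:**
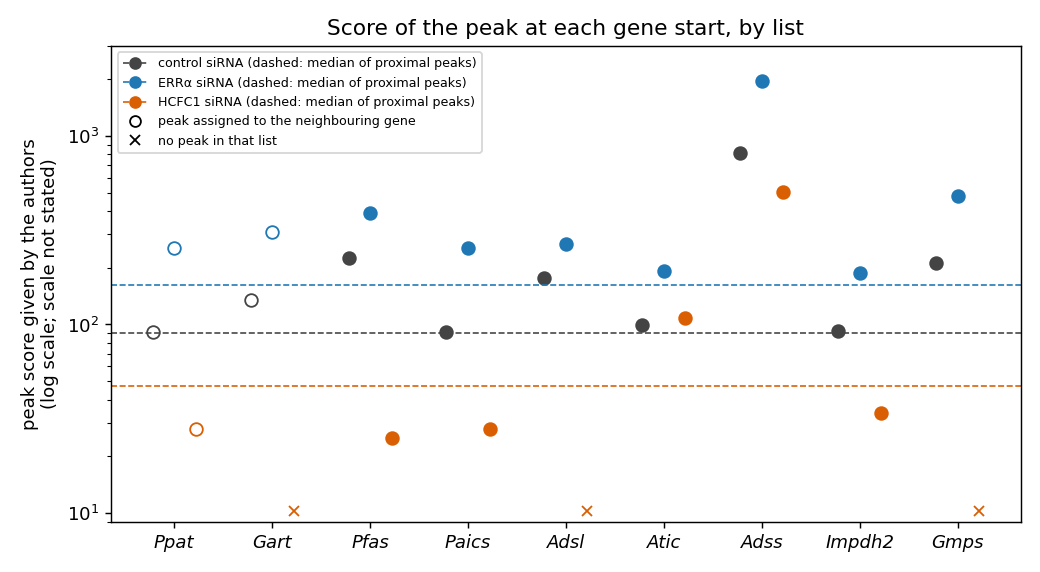
Points show the authors' score (log axis, scale not stated) of the highest-scoring peak centred within 1000 bp of each gene's start, by list, with 1 library per list and no error; open points are peaks over the start that were assigned to the neighbouring gene, crosses mark lists with no such peak, and dashed lines are the median score of all proximal peaks in each list (90, 162 and 47). Adss is highest in every list, and only Atic and Adss lie above the median in the HCFC1-siRNA list.

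Across the group, a peak covered every start after ERRα knockdown, although for Ppat and Gart it was assigned to the neighbouring gene. A proximal peak was assigned to 7 of 9 members in that list, against 45.1% of protein-coding genes. All 7 members with a proximal control peak had one overlapped, beside 92.2% of the 9687 protein-coding genes with such a peak, so the count is near the background. Peaks covered all 9 starts in that list, against 47.5% of genes with a start in the RefSeq promoter table, which lacks Pfas. Among the 8 proximal control peaks of members only the upstream Adsl peak was not overlapped, and 88.6% of all proximal control peaks were. Of the 1134 proximal control peaks in its decile of score (90 to 123), 1121 were overlapped (98.9%, 98.0 to 99.4%), which puts the upstream Adsl peak among 13 exceptions. Other proximal peaks of the same score, of which Adpgk, Adprh and Amdhd1 come first in alphabetical order, included these 3 with an overlap. Member scores were higher than in control in each of the 7 genes, and so was the median of all proximal peaks, 162 against 90. As the scale is not stated, no change is read from these scores. The proximal peaks of this list had a median width of 1143 bp and those of the control list 896 bp, which makes an overlap easier, and its part in these counts was not tested.

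HCFC1 knockdown left a peak at 5 of the 7, in Pfas, Paics, Atic, Adss and Impdh2, beside 60.4% of genes with a proximal control peak. The same 5 of 9 members had a proximal peak assigned, against 29.3% of protein-coding genes, and 55.4% of all proximal control peaks were overlapped. With 7 genes this count is not separable from that share. Peaks covered 5 of the 9 starts, against 24.1% of genes with a start in the RefSeq promoter table, which lacks Pfas. In order of control score, the upstream Adsl peak (91) was not overlapped, those of Paics (91), Impdh2 (92) and Atic (99) were, those of the Gart start (134), Adsl (176) and Gmps (213) were not, and those of Pfas (224) and Adss (807) were. Among all proximal control peaks the share overlapped rose steadily with control score, from 16.3% in the lowest decile to 99.7% in the highest. It was 58.3% (55.4 to 61.2%) in the decile that holds Paics, Impdh2 and Atic, 69.7% (66.9 to 72.4%) in that of the Gart start, and 80.1% (77.6 to 82.4%) in that of Adsl, Gmps and Pfas. Among proximal control peaks with the score of the Adsl start peak (176), the first in alphabetical order (AW209491, Col4a1 and E2f3) were all overlapped. Beside Gmps, Cyth3 and Fbxo7 were and Gtf2f2 was not. Beside the Gart start, 1500011B03Rik and Alg3 were and Aga was not. Beside the upstream Adsl peak (91), Adpgk, Adprh and Amdhd1 were all without an overlap, as that peak was. Intervals cover counting error only.

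**Figure D3:**
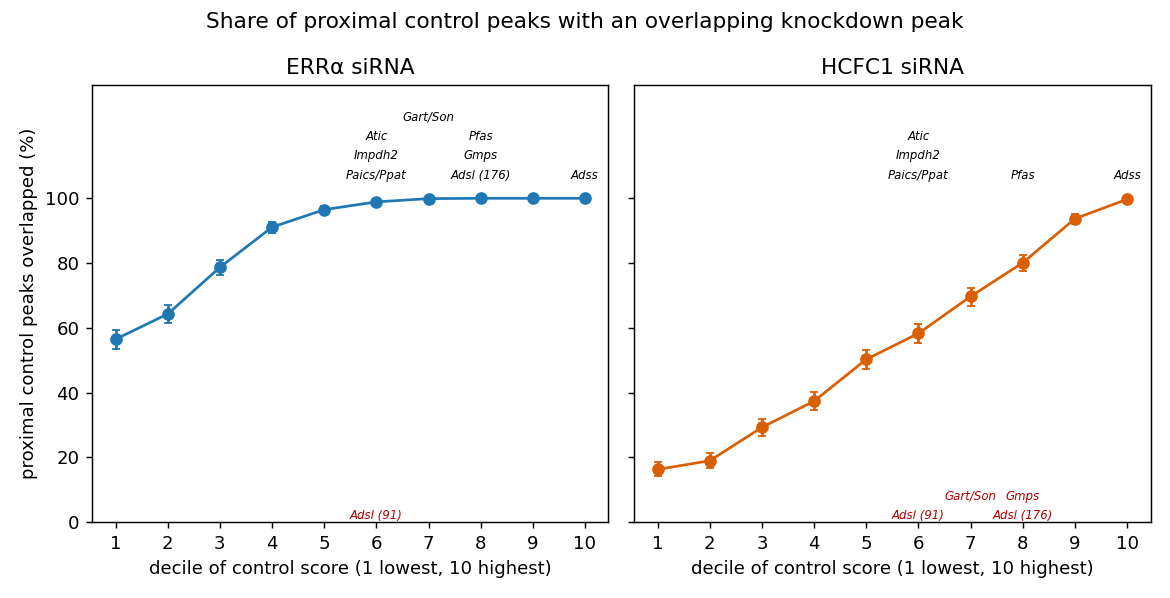
Points show the percentage of proximal control peaks overlapped by at least 1 bp of a knockdown peak (y axis), in 10 equal groups (deciles) of control score (x axis), with exact binomial 95% intervals as bars; names above the curve are peaks of purine synthesis genes that were overlapped, and names at the foot those that were not, with the control score after Adsl. After HCFC1 siRNA the Adsl, Gmps and Gart/Son peaks are missing from deciles where 58.3 to 80.1% of peaks are overlapped.

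Both comparisons use the same control list. Pfas, Paics, Atic, Adss and Impdh2 shared the pattern of 5778 genes (59.6% of 9687), overlapped in both lists. Adsl and Gmps shared that of 3152 genes (32.5%), overlapped after ERRα knockdown only. No member had the pattern of the 72 genes (0.743%) overlapped only after HCFC1 knockdown, or of the 685 (7.07%) overlapped in neither.

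Away from the starts few member peaks had a counterpart, as in the lists as a whole. Of 9 control peaks that were not proximal, with scores from 16 to 47, 3 lay beyond 20000 bp. Of the remaining 6 only the weak upstream Adss peak was overlapped, in both lists. Of all 14164 control peaks that were not proximal and lay within 20000 bp, the ERRα-knockdown list overlapped 32.6% and the HCFC1-knockdown list 12.4%. Nothing particular to the members is read from this count. The ERRα-knockdown list added 4 member peaks without a control counterpart, 3 at Adss (scores 35, 46 and 85) and 1 upstream of Paics (18), and the HCFC1-knockdown list added 2, at Adsl (27) and Adss (26).

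Genes around the pathway also had proximal control peaks more often than the 44.2% of protein-coding genes. In 6 related lists with 77 genes, 56 had a proximal control peak (72.7%). Of these, 51 were overlapped after ERRα knockdown (91.1%, all genes 92.2%) and 27 after HCFC1 knockdown (48.2%, all genes 60.4%). The difference from the purine synthesis genes was not tested.

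PRPP synthesis, which supplies the substrate of PPAT, had 3 of 5 genes with a proximal control peak. Prpsap1, which encodes a PRPP synthetase-associated protein, had a score of 3768 and was overlapped in both lists. Prpsap2 (55) and the synthetase gene Prps2 (34) were overlapped only after ERRα knockdown. The isozymes of the branches both had a proximal control peak. That of Impdh1 (81) was overlapped in both lists, and that of Adssl1, the muscle form of adenylosuccinate synthase (19), in neither. The HCFC1-knockdown list did have a proximal peak assigned to Adssl1, which did not overlap the control peak.

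Folate one-carbon supply provides formyl groups to GART and ATIC and had 14 of 19 genes with a proximal control peak, of which 12 were overlapped after ERRα knockdown and 6 after HCFC1 knockdown. The highest were Shmt2, the mitochondrial serine hydroxymethyltransferase gene (739), the folate carrier gene Slc19a1 (668) and the mitochondrial folate carrier gene Slc25a32 (397), all overlapped in both lists. The glycine cleavage genes Dld (181) and Gcsh (79) were not overlapped after HCFC1 knockdown. Aldh1l2 (34) and Aldh1l1 (19), which encode formyltetrahydrofolate dehydrogenases, were overlapped in neither.

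Purine salvage and breakdown had 10 of 19 genes with a proximal control peak. After ERRα knockdown 9 were overlapped, all but Ada (64), and after HCFC1 knockdown 6. The deoxyguanosine kinase gene Dguok (728) and the nucleotidase gene Nt5c2 (250) were overlapped in both lists. The adenosine kinase gene Adk (194) and the deoxycytidine kinase gene Dck (59) lacked an overlap after HCFC1 knockdown, as did Ada.

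Pyrimidine synthesis, the parallel pathway, had 14 of 16 genes with a proximal control peak, and 13 of these were overlapped after ERRα knockdown and 5 after HCFC1 knockdown. Cmpk1, the UMP-CMP kinase gene (994), Dhodh, the mitochondrial dihydroorotate dehydrogenase gene (241), and Dtymk, the thymidylate kinase gene (167), were overlapped in both lists. Cad, the gene of the enzyme that opens the pathway, was picked for that role after its values were seen. It had a score of 28 and was not overlapped after HCFC1 knockdown. Neither were the uridine-cytidine kinase gene Uck1 (140), the mitochondrial thymidine kinase gene Tk2 (131) and the CTP synthetase gene Ctps (64). Umps (47), whose product makes UMP, was overlapped in neither list.

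The nucleotide kinases and ribonucleotide reductase had 13 of 16 genes with a proximal control peak, all overlapped after ERRα knockdown and 8 after HCFC1 knockdown. The adenylate kinase gene Ak6 (2551, with its knockdown peaks assigned to another gene), the ribonucleotide reductase gene Rrm1 (608) and the nucleoside diphosphate kinase gene Nme1 (483) were overlapped in both lists. Nme6 (162) and the mitochondrial adenylate kinase gene Ak4 (68) were not overlapped after HCFC1 knockdown.

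**Figure D4:**
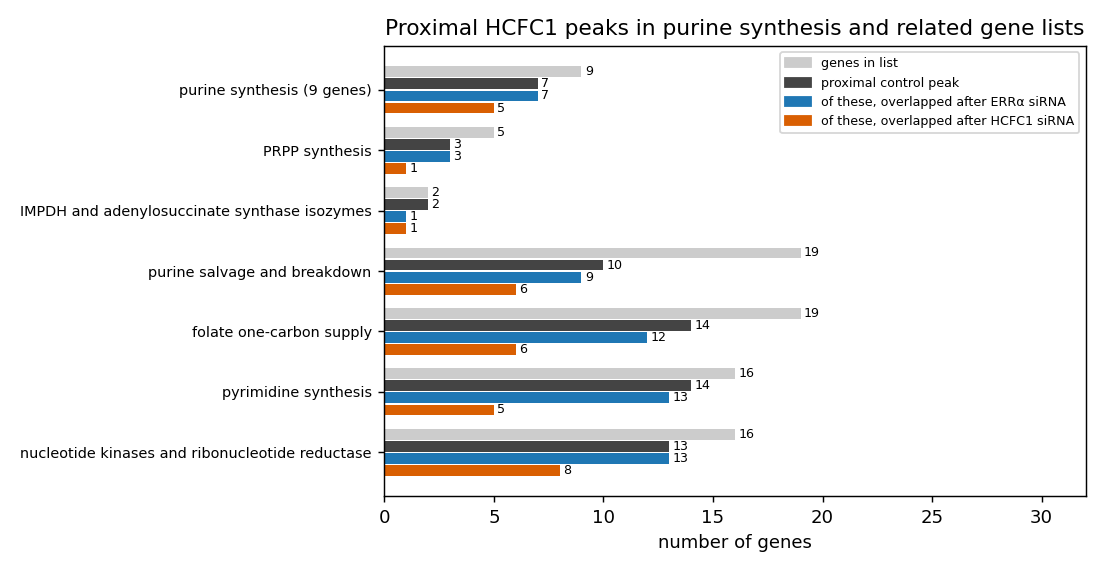
Bars show the number of genes in each list (grey), those with a control HCFC1 peak centred within 1000 bp of their start (black), and those among them with such a peak overlapped after ERRα siRNA (blue) or HCFC1 siRNA (orange). Of the purine synthesis genes 7, 7 and 5 of 9 are counted in turn, and of pyrimidine synthesis 14, 13 and 5 of 16.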

How the data were processed

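HCFC1 ChIP-seq was analysed from 3 lists of annotated peaks, 1 for each siRNA condition; the IgG libraries were not analysed here. Build mm10, HOMER 4.11.1, MACS2 2.1.1.20160309, BWA 0.7.12 and Picard 2.0.1 appear in the submitters' processing notes, with no role stated, and the use made of the IgG libraries is not known here. The authors deposited a whole-number score per peak, at least 13 and on an unstated scale. The distance to the nearest start is in bp, per the file headers. For all 20 proximal member peaks it equalled the distance from the peak centre to the RefSeq start within 1 bp. The Pfas start was the gene end picked by this deposited distance, so its agreement is no separate check. Positions are printed as deposited. In the control list 55 gene names had become dates, so genes other than the members were matched by gene identifier to RefSeq (GRCm38.p6).

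A control peak was overlapped when a knockdown peak shared at least 1 bp with it. The overlap step was tested on simulated data. Shares carry Clopper-Pearson intervals. Python 3.11.15, pandas 2.3.3 and SciPy 1.17.1 were used. Depth is unknown.

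The members, related lists, motifs and settings were chosen with earlier results of these data known. Named were all members, genes sharing their starts, and in each related list up to 3 genes with the highest proximal control score and up to 3 lacking an overlap in each knockdown list, some of which are not reported here; beside members without an overlap, the 3 proximal control peaks nearest in score were taken. No RefSeq window was used for Pfas.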

Additional observations from a re-analysis of the deposited data

How the results depend on the processing

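Of 55 values recomputed under 9 other settings, 33 stayed within 1.5 times the count or within the interval of the share, and 22 did not; no direction is tested, and the cause of each move was not tested unless given. With peaks annotated to a promoter in place of the 1000 bp distance, 3 members had a control peak, 2 an ERRα-knockdown peak and 3 an HCFC1-knockdown peak. The control peak of 2 was overlapped after each knockdown. Most proximal member peaks of the control and ERRα-knockdown lists carried another label. In the higher-scoring 50% of every list, 2 members (Atic and Adss) had a proximal HCFC1-knockdown peak, and 2 had their control peak overlapped there. With a score of at least 30 in every list, chosen after seeing the data, both counts were 3 (Atic, Adss and Impdh2). All member counts for ERRα knockdown stayed at 6 to 9 under every setting but the promoter label. The share of all proximal control peaks overlapped after ERRα and HCFC1 knockdown, 88.6% and 55.4%, was 72.2% and 40.8% with centres within 5000 bp, 94.7% and 68.9% with lists of equal length, 64.9% and 30.9% with reciprocal overlap of at least 50%, and 52.9% and 34.1% with centres within 200 bp. With the control list limited to 20000 bp and lists then of equal length, a setting chosen after seeing the data, it was 92.9% and 66.6%, and with a score of at least 30 it was 91.9% and 49.6%. The higher-scoring 50% gave 45.7% after HCFC1 knockdown. No paired analysis was possible because each condition had 1 library and no test was made.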

Other observations

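The limit of both knockdown lists to about 20000 bp from a start bears on any count over whole lists. Of all 36147 control peaks, 40.6% were overlapped after ERRα knockdown and 22.3% after HCFC1 knockdown. Of the 25507 control peaks within 20000 bp, the shares were 57.5% (exact binomial 95% interval 56.9 to 58.1%) and 31.5% (31.0 to 32.1%). Of the 10630 control peaks beyond it, 9 and 1 were overlapped.

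The letters ACTACAA, the start of the element bound by ZFP143 and THAP11, which no purine synthesis gene window held, went with the largest difference in overlap after HCFC1 knockdown among the 7 motifs searched. Among control-occupied windows, a peak overlapped the window after HCFC1 knockdown in 409 of 460 with ACTACAA (88.9%, 85.7 to 91.6%) and in 4659 of 8810 without it (52.9%, 51.8 to 53.9%). The corresponding shares were 71.6% and 53.7% for the YY1 letters and 66.1% and 51.5% for CCGGAAG. For AAGGTCA, the ERR half-site, they were 48.0% and 54.9%, and after ERRα knockdown 88.5% (83.9 to 92.2%) of 252 windows with it and 94.1% (93.5 to 94.5%) of 9018 without it were overlapped. These shares were not adjusted for peak score.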
